A study of Mus musculus with 6 samples.

Results

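Paneth cells, the secretory cells at the base of the small intestinal crypts, transcribe 3 genes for secreted, calcium-dependent carbohydrate- or ligand-binding proteins that are described here: Itln1 (intelectin 1) and the mucosal pentraxins Mptx1 and Mptx2. The genes were chosen by name, and these 3 of the 55414 rows of the count table were read in all 6 libraries. All 3 were among the 9749 genes with enough counts to be tested. Lyz1, the lysozyme of Paneth cells, served as the reference gene within each library.

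RNA-seq was performed on Paneth cells that had been collected by FACS from the small intestine of WT mice, which the study's methods give as C57BL/6J. The mice had eaten standard chow (3 libraries) or zinc depleted chow (3 libraries) for 7 weeks, which addresses what a lack of dietary zinc does to these cells. Every mouse of both groups also received TNF 3 hours before sampling, so neither group is free of TNF and no effect of TNF can be read from these libraries. The series' design text speaks of 4 replicates per group, while the labels give 3. The labels state neither the age nor the sex of the mice. The methods describe samples from individual mice. The labels do not name the mouse behind each library, so p-values measure the spread between these libraries.

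Intelectins are lectins that bind sugars found on microbial surfaces, and Itln1 is made by the secretory cells of the intestinal epithelium, Paneth and goblet cells. Pentraxins are ring-shaped, calcium-dependent pattern recognition proteins whose best-known members are C-reactive protein and serum amyloid P, both made in the liver. The mucosal pentraxins are relatives of these serum proteins that are expressed in the gut epithelium.

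The libraries held between 6139397 and 12772373 counts. Every one of the 10 Paneth cell markers was detected in every library, with a summed level of 452224 to 592662 CPM (counts after every library is brought to a total of 1000000). Lyz1, Defa24 and Defa30 made up most of this sum, with 119548, 213286 and 95505 CPM in standard replicate 1. The sum thus says little about the other Paneth cell markers. Libraries of the same group were not alike. Their chi-square per degree of freedom was 15.3 for standard replicates 1 and 2 and 18.4 for zinc depleted replicates 2 and 3, but 52.2 to 168 for every pair that included standard replicate 3 or zinc depleted replicate 1. The TMM factors, which correct the totals so that most genes are level, ranged from 0.46 to 1.73. Values per total counts and values with TMM scaling therefore differ widely here, and both are given for the 3 genes and the marker sums of other cells. In sorted cells in bulk, fewer cells of a type and less RNA per cell cannot be told apart.

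The 3 genes lie on chromosome 1 of GRCm39, and no annotated gene overlaps any of them. Itln1 (ENSMUSG00000038209) spans 171345690 to 171368943 on the minus strand and has 8 exons in its canonical transcript of 1142 bases. Mptx2 (ENSMUSG00000079180) spans 173101949 to 173105344 on the minus strand, and Mptx1 (ENSMUSG00000026531) spans 174158084 to 174160439 on the plus strand. Both mucosal pentraxin genes have 2 exons, with canonical transcripts of 799 bases for Mptx1 and 794 bases for Mptx2. They are 1.05 Mb apart, and 1.73 Mb separate Itln1 from Mptx2. The nearest protein-coding gene to Mptx2 is Or10j2, an olfactory receptor gene 387 bases away.

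Mptx1 and Mptx2 are close copies. Their coding sequences are 657 bases long and differ at 53 positions (91.9% identity), and the 219 encoded residues differ at 33 (84.9% identity). The likeness is uneven along the transcript. Transcript bases 1 to 112 and 114 to 222 hold no difference, whereas the last part of exon 2 holds up to 13 differences in a stretch of 75 bases. The least alike stretch, coding bases 550 to 624 in exon 2, is shown because it is where reads of the pair are most easily told apart. Capitals mark the bases that differ (GENCODE M39 gene models on GRCm39, 5′ to 3′ on the gene's strand, chr1:174160245-174160319 on the plus strand for Mptx1 and chr1:173102064-173102138 on the minus strand for Mptx2).
Mptx1: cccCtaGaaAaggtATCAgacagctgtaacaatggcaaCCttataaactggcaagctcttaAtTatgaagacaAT
Mptx2: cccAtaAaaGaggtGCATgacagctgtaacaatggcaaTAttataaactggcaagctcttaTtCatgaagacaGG

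Of the 583 windows of 75 coding bases, 128 (22.0%) held at most 2 differences. Among the 75-base stretches of the canonical transcripts, 89.9% of those of Mptx1 and 89.9% of those of Mptx2 occurred in no other transcript, and the remainder were shared between the pair. Itln1 shared no such stretch with any other gene (100% specific). Lyz1 shared some with Lyz2, the lysozyme of macrophages, and 93.8% of its stretches were specific. How the authors' counter treated reads that match both genes is not given in the sources used here, so the counts of Mptx1, the less abundant copy, are uncertain in that respect.

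**Figure D1:**
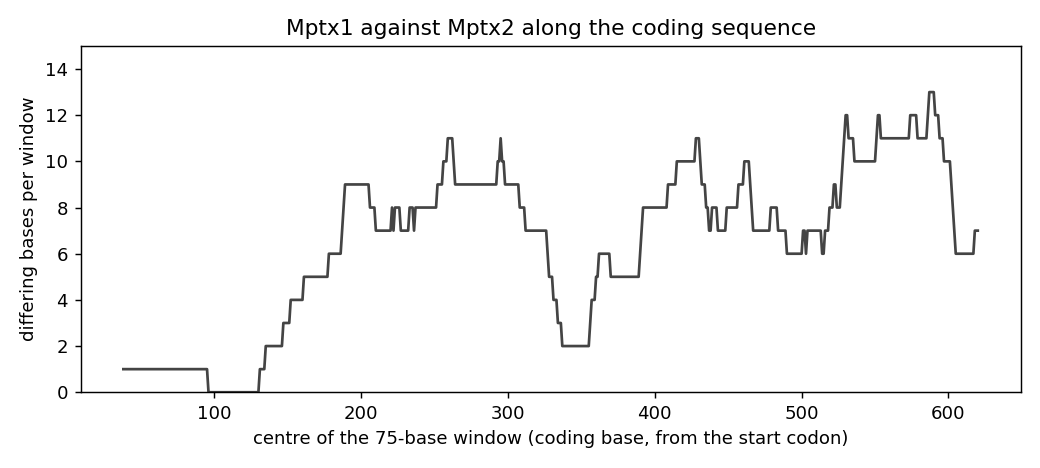
Differences between Mptx1 and Mptx2 along the coding sequence. The x axis gives the centre of each 75-base window in coding bases from the start codon, and the y axis the number of bases that differ in it. The count lies at 0 or 1 in the first windows, dips to 2 in the middle and reaches 13 near the end.

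The likeness of the pair continued upstream of the transcripts. The 150 bases before the GENCODE starts of Mptx1 and Mptx2 aligned over 151 columns, of which 17 differed, 2 of these as gaps (88.7% identity). The windows are shown because the copies, though alike here, were read at very different levels. Capitals mark bases that differ or that have no counterpart in the other window (GRCm39, 5′ to 3′ on the gene's strand, chr1:174157934-174158083 on the plus strand and chr1:173105345-173105494 on the minus strand).
Mptx1: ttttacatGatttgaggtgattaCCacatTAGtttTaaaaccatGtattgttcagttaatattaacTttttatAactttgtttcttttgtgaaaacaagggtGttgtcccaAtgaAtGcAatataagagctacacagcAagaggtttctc
Mptx2: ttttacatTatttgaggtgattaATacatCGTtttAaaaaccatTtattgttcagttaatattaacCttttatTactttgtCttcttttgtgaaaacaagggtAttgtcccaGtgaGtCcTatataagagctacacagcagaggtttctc
RefSeq places the start of Mptx1 at the same base, and that of Mptx2 21 bases further into the gene. The letters TATAA, searched on both strands, occur within the 60 bases before the RefSeq start in both genes, 29 bases before it in Mptx1 and 49 bases before it in Mptx2. They occur in that window in 2380 of 32851 RefSeq promoters (7.25%, GRCm38.p6 table), and not in that of Itln1. The upstream window of Itln1 was 47.6% identical to each of the other windows in a gapped alignment. Windows of other genes were not aligned, so this value does not show whether Itln1 is related to the pair here.

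Per unit of transcript length, the order of levels was Lyz1, Itln1, Mptx2 and Mptx1 in each of the 6 libraries, and the ranges of the 4 genes did not overlap. On the TPM scale (counts divided by transcript length, then brought to an equal sum in every library), Lyz1 ranged from 64564 to 90396, Itln1 from 17722 to 39878, Mptx2 from 6612 to 15499 and Mptx1 from 4.57 to 15.1. Itln1 was thus among the most abundant transcripts of these cells, with rank 6 to 8 of all genes by TPM. Mptx2 followed at rank 9 to 13. Mptx1 took rank 695 to 2388. Of the other reference genes, Mmp7 ranged from 2732 to 3872 TPM and Lyz2 from 8.04 to 19.4 TPM.

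**Figure D2:**
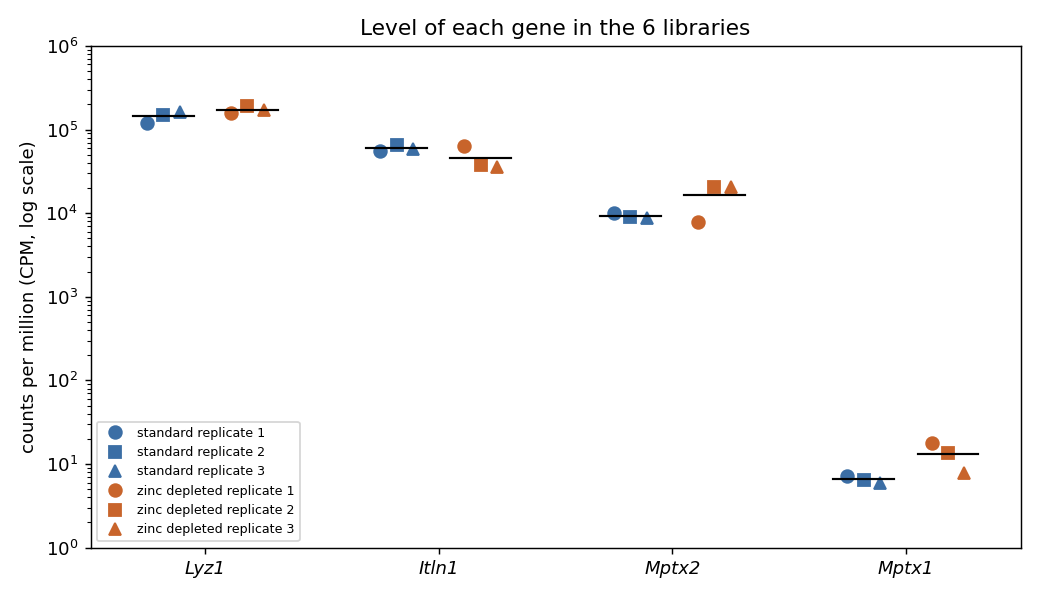
Level of Lyz1, Itln1, Mptx2 and Mptx1 in each library, in CPM on a log scale, not corrected for length. Points are libraries (blue standard diet, orange zinc depleted, shapes by replicate number) and lines are group means. Mptx1 lies between 6.01 and 17.6 CPM while its copy Mptx2 lies between 7798 and 20655 CPM, and zinc depleted replicate 1 sits apart from replicates 2 and 3 for Itln1 and Mptx2.

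Itln1 made up several percent of all counts. It held 406715, 405484 and 576859 counts in standard replicates 1 to 3, and 638442, 280680 and 453188 counts in zinc depleted replicates 1 to 3. As a share of the library this was 5.54%, 6.60% and 5.78% on standard chow and 6.39%, 3.78% and 3.55% on zinc depleted chow. Zinc depleted replicate 1 thus lay within the standard range, while replicates 2 and 3 lay below every standard library, and the groups overlapped. The mean share was 5.98% ± 0.56 (SD, n = 3) on standard chow and 4.57% ± 1.58 (SD, n = 3) on zinc depleted chow. The difference of -1.40 percentage points did not exceed the spread between libraries (exact two-sided permutation test, p = 0.3, where 0.1 is the smallest p that 3 libraries against 3 allow). Without zinc depleted replicate 1 it was -2.31 points, and without replicate 3 it was -0.892 points. The Wilson 95% interval of the lowest share, which treats reads as independent, ran from 3.54% to 3.56%. Such intervals leave out the spread between libraries. They are also too narrow where reads are not independent molecules, and the reads carry no molecular identifiers.

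Mptx2 was the dominant mucosal pentraxin. It held 73649, 55477 and 86296 counts on standard chow and 77923, 153215 and 263818 counts on zinc depleted chow. These were 10035, 9036 and 8649 CPM in standard replicates 1 to 3 and 7798, 20621 and 20655 CPM in zinc depleted replicates 1 to 3. Zinc depleted replicates 2 and 3 were the highest of the 6 libraries and replicate 1 of the same group was the lowest, so that the groups overlapped. The mean share of counts was 0.924% ± 0.0715 (SD, n = 3) against 1.64% ± 0.741 (SD, n = 3). This difference of 0.712 percentage points (exact two-sided permutation test, p = 0.4) was 1.14 points without zinc depleted replicate 1 and 0.497 without replicate 3. As a share of the counts outside the alpha-defensins it was 1.96 points.

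Mptx1 was read at a low level. It held 53, 40 and 60 counts on standard chow and 176, 102 and 100 counts on zinc depleted chow, well above the limit of 3 counts that a count of 0 allows. Scaled to the totals, this was 7.22, 6.52 and 6.01 CPM against 17.6, 13.7 and 7.83 CPM, with means of 6.58 ± 0.61 and 13.1 ± 4.93 CPM (SD, n = 3 each). All 3 zinc depleted libraries lay above all 3 standard libraries, as did 0.554% of the tested genes in that direction. The gap was narrow at its closest point: the exact Poisson 95% interval was 5.41 to 9.45 CPM in standard replicate 1 and 6.37 to 9.52 CPM in zinc depleted replicate 3, and these overlap. In TPM the groups overlapped, with 6.19, 5.62 and 4.57 against 15.1, 10.3 and 5.59. The share of counts gave the smallest possible p (exact two-sided permutation test, p = 0.1).

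Ratios within a library do not depend on how libraries are scaled to each other. Relative to Lyz1 and per length, Itln1 stood at 51.5%, 49.3% and 39.7% in standard replicates 1 to 3, and at 45.3%, 21.8% and 23.0% in zinc depleted replicates 1 to 3. The ratio was 0.609-fold the standard one on average, a log2 difference of -0.72 (exact permutation test, p = 0.2, adjusted p = 0.4 over the 6 ratios by the Benjamini-Hochberg method), and it ran from -1.05 without zinc depleted replicate 1 to -0.53 without replicate 2. Mptx2 stood at 13.4%, 9.70% and 8.54% of Lyz1 on standard chow, and at 7.95%, 17.1% and 19.2% on zinc depleted chow, a log2 difference of 0.41 (exact permutation test, p = 0.4, adjusted p = 0.48) that was 0.81 without zinc depleted replicate 1 and 0.17 without replicate 3. For both genes, zinc depleted replicates 2 and 3 lay outside the standard range, on opposite sides of it, and replicate 1 did not share their position.

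Mptx1 amounted to 0.00968%, 0.00704% and 0.00595% of Lyz1 on standard chow and 0.0179%, 0.0114% and 0.00728% on zinc depleted chow (log2 difference 0.62, exact permutation test, p = 0.2, adjusted p = 0.4). This difference was 0.30 without zinc depleted replicate 1 and 0.95 without replicate 3. Exchanging the reference for the sum of Lyz1 and Lyz2, for the sum of the 28 alpha-defensin genes, or for Mmp7, the metalloprotease that activates alpha-defensins, left the 3 differences with the same sign. Itln1 gave -0.72, -0.58 and -0.74 in this order, Mptx1 0.62, 0.76 and 0.60, and Mptx2 0.41, 0.55 and 0.39. The first of these references could hardly give another value, because Lyz2 held 247 to 955 counts beside at least 877354 for Lyz1.

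**Figure D3:**
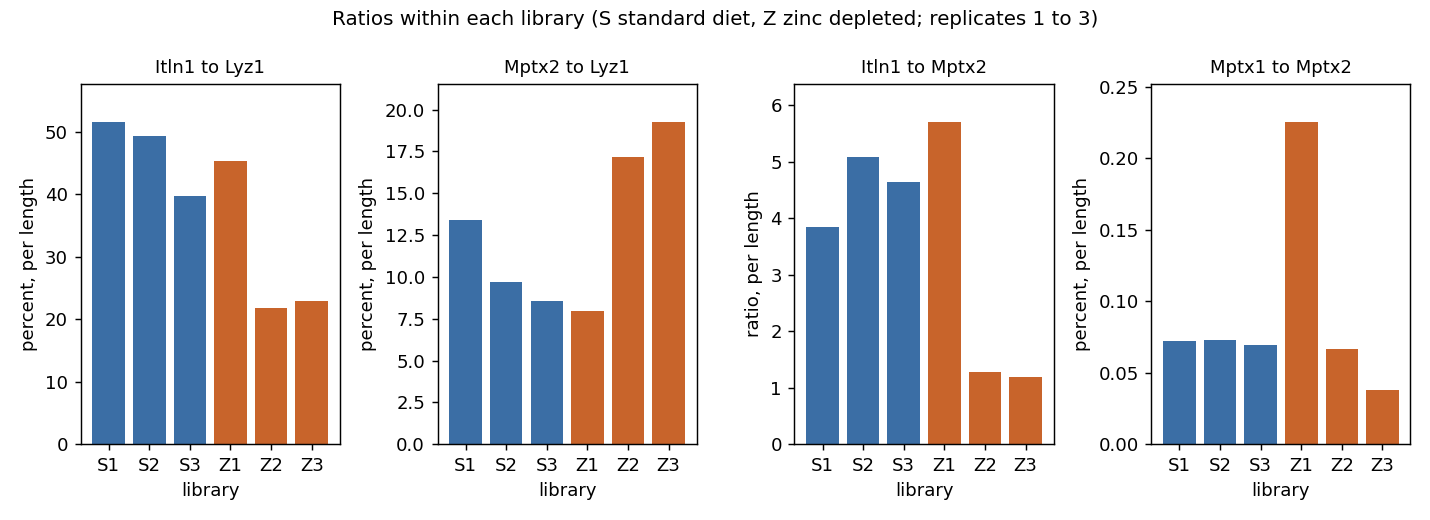
Ratios of the 3 genes within each library, per transcript length. Bars are single libraries (S standard diet, Z zinc depleted, replicates 1 to 3), as percent or as a plain ratio on axes that start at 0. Itln1 to Mptx2 lies between 3.84 and 5.70 in 4 libraries and at 1.27 and 1.19 in Z2 and Z3, and Mptx1 to Mptx2 is 0.225% in Z1 and at most 0.0725% elsewhere.

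Between the members, the ratio of Itln1 to Mptx2 was 3.84, 5.08 and 4.65 in the standard libraries and 5.70, 1.27 and 1.19 in zinc depleted replicates 1 to 3. The lectin was thus several-fold above the pentraxin in 4 libraries and near its level in the other two. The difference of -1.13 in log2 was within the spread (exact permutation test, p = 0.4, adjusted p = 0.48), and it ran from -1.86 without zinc depleted replicate 1 to -0.74 without replicate 3.

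The ratio of the close copies was much the same in the standard libraries. Mptx2 exceeded Mptx1 by 1385, 1378 and 1435 times in standard replicates 1 to 3, a range of 1.04-fold. These ratios rest on 53, 40 and 60 counts of Mptx1. The exact Poisson 95% intervals of Mptx1 were 5.41 to 9.45, 4.65 to 8.87 and 4.59 to 7.74 CPM, each far wider than 1.04-fold. The closeness of the ratios thus does not measure how steady they were. In zinc depleted replicates 1 to 3 Mptx1 amounted to 0.225%, 0.0665% and 0.0379% of Mptx2, a range of 5.95-fold. The mean log2 ratio of Mptx1 to Mptx2 did not separate the diets, with a difference of 0.21 (exact permutation test, p = 1, adjusted p = 1), and its sign turned without zinc depleted replicate 1, to -0.51. Whether the small share of Mptx1 includes reads of Mptx2 that were assigned to the wrong copy was not tested.

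The ratio of Itln1 to Mptx1 was the only one of the 6 whose groups did not overlap. It was 5319, 7005 and 6671 on standard chow and 2531, 1916 and 3155 on zinc depleted chow, or 0.395-fold. The log2 difference was -1.34 and reached the smallest p that the design allows (exact permutation test, p = 0.1), but it did not pass adjustment over the 6 ratios (adjusted p = 0.4). With each library left out in turn it ranged from -1.51 to -1.15.

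None of the 3 genes passed the test of diet, and no tested gene did (0 of 9749, 0.00%, with edgeR's quasi-likelihood F test and an adjusted p under 0.05). At an unadjusted p under 0.05 this test gave 645 genes. limma-voom also called 0 genes (625 at an unadjusted p under 0.05) and DESeq2 called 10, none of them a member. With TMM scaling, the log2 fold change of zinc depleted against standard diet was 0.36 (SE 0.68, unadjusted p = 0.609, adjusted p = 0.881) for Itln1. It was 1.73 for Mptx1 (SE 0.40, unadjusted p = 0.00124, adjusted p = 0.681) and 1.94 for Mptx2 (SE 0.79, unadjusted p = 0.0320, adjusted p = 0.681). Both mucosal pentraxins but not Itln1 had an unadjusted p under 0.05, as had 6.62% of the tested genes in either direction and 2.58% in the direction of higher values with zinc depletion. The reference Lyz1 had a log2 fold change of 1.16 (SE 0.86, adjusted p = 0.710).

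These values depended on the scaling. In CPM with TMM factors, Itln1 read 32107, 43895 and 64388 on standard chow and 43834, 59047 and 77166 on zinc depleted chow, so that its group mean was higher with zinc depletion, whereas its share of all counts was lower. Scaled by total counts only, its log2 fold change was -0.39. That scaling placed the median of all tested genes at -0.66, and against this median Itln1 was at 0.28. Mptx2 read 5814, 6006 and 9632 TMM-scaled CPM on standard chow and 5350, 32232 and 44921 on zinc depleted chow, with zinc depleted replicate 1 again the lowest of all 6. Its log2 fold change was 0.82 with total counts only (SE 0.36, unadjusted p = 0.0461, adjusted p = 0.685 by edgeR).

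Mptx1 read 4.18, 4.33 and 6.70 TMM-scaled CPM on standard chow and 12.1, 21.5 and 17.0 on zinc depleted chow. Its groups did not overlap on this scale either, as was true of 3.51% of the tested genes with higher values in zinc depletion. With total counts only, its log2 fold change was 0.99 (SE 0.54, unadjusted p = 0.103 by edgeR). Over 14 fits that varied the tool, scaling, filter, block and libraries, the log2 fold change ran from 0.99 to 2.02 for Mptx1 with adjusted p from 0.0716 to 1.00, and from 0.82 to 2.44 for Mptx2 with adjusted p from 0.117 to 1.00. That of Itln1 ran from -0.39 to 0.71 and was above 0 in 13 of the 14. The direction of both pentraxins was the same in all 14.

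**Figure D4:**
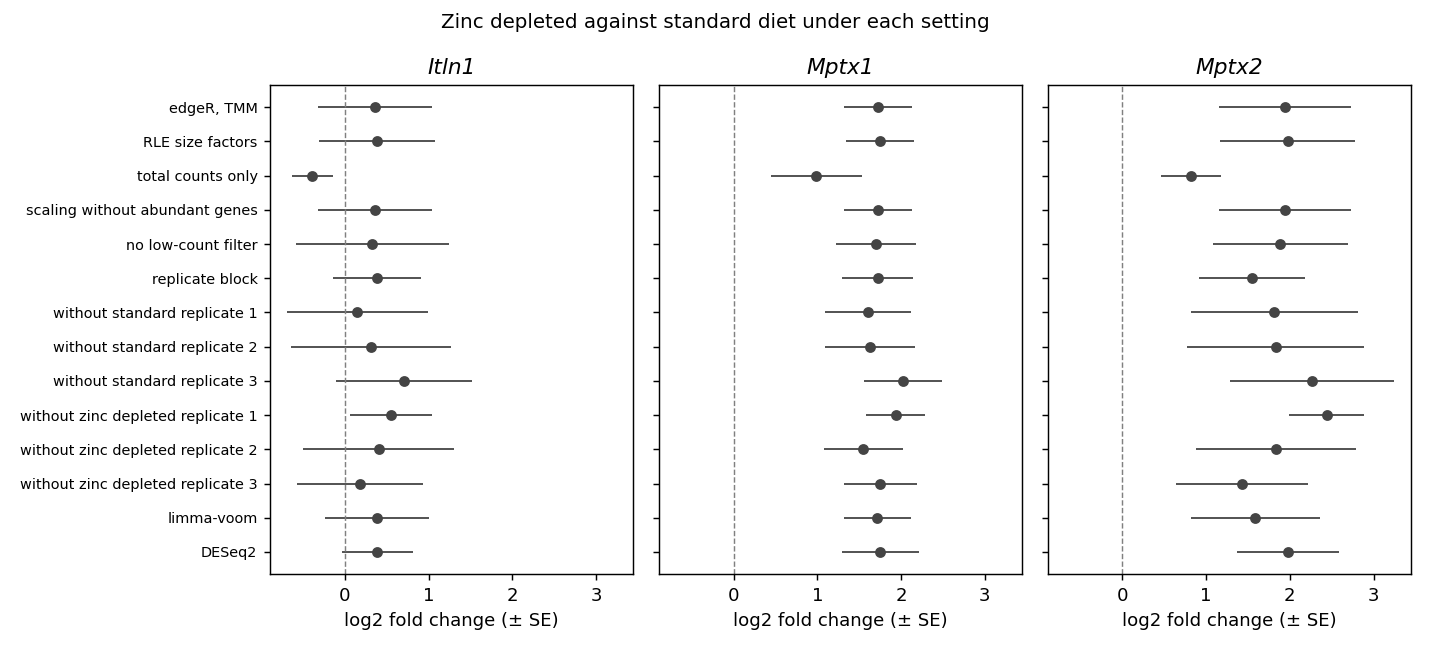
Log2 fold change of zinc depleted against standard diet for each gene under 14 settings. Points are estimates, bars are ± SE and the dashed line marks no difference. The estimates of Mptx1 and Mptx2 lie above 0 throughout, whereas that of Itln1 is -0.39 with total counts only and 0.15 to 0.71 otherwise.

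Apart from Nptx2, the other genes of the pentraxin family had between 0 and 13 counts in any library. Of the 9 family members, Mptx1, Mptx2 and Nptx2, a neuronal pentraxin, had enough counts to be tested. Nptx2 held 6, 7 and 58 counts on standard chow and 124, 10 and 18 on zinc depleted chow, with its highest count in zinc depleted replicate 1, where it read 12.4 CPM beside 17.6 CPM for Mptx1 (log2 fold change 0.89, SE 0.88, adjusted p = 0.775 by edgeR). Crp, which encodes C-reactive protein, had 1 count in standard replicate 1 and none elsewhere. Apcs, which encodes serum amyloid P, and Ptx4 had no count in any library, which allows up to 0.235 to 0.489 CPM depending on the library. The long pentraxin gene Ptx3 had 1 count in zinc depleted replicate 2. Nptx1 had 13, 1 and 1 counts on standard chow and 3, 0 and 0 on zinc depleted chow, and Nptxr, the neuronal pentraxin receptor gene, had 3, 2 and 1 against 8, 0 and 2. The 3 tested genes had a median log2 fold change of 1.73 under TMM scaling, or 0.94 when only the totals were used. Over all tested genes these medians were 0.00 and -0.66. Mptx1 and Mptx2 are themselves among the 3 tested genes, and the TMM median is the value of Mptx1. The family medians therefore describe no shift of the family beyond these genes.

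Among 30 other secreted or soluble lectins and pattern-binding proteins, 29 were found in the annotation and 16 were tested. None passed the test. The fitted value was higher with zinc depletion for 13 and lower for 3, with a median log2 fold change of 0.41 against 0.00 over all tested genes, but with total counts only this held for 5 of the 16, with a median of -0.36 against -0.66. The smallest unadjusted p belonged to Dmbt1, a scavenger receptor-like protein that binds bacteria. It held 2825, 2214 and 275 counts on standard chow and 284, 62 and 234 on zinc depleted chow, so that standard replicate 3 lay with the zinc depleted libraries (log2 fold change -2.77, SE 0.72, adjusted p = 0.681 by edgeR). Reg3b, a secreted C-type lectin, held 1638, 1754 and 2107 counts against 3582, 2494 and 7212 (log2 fold change 1.85, SE 0.59, adjusted p = 0.681).

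The 11 genes on the list of other Paneth cell products, which also holds Lyz2 and the stress-response gene Nupr1, were all tested. None passed, the fitted value was higher with zinc depletion for each of the 11, and the median was 0.78. Over all tested genes 4875 of 9749 were higher, with a median of 0.00. With total counts only 6 of 11 were higher and the median was 0.12, against 1279 of 9749 and -0.66 over all tested genes. Reg3b and Reg3g had the smallest unadjusted p of the list. Reg3g, the C-type lectin that kills Gram-positive bacteria, held 12975, 10198 and 16140 counts on standard chow and 20040, 20996 and 39793 on zinc depleted chow (log2 fold change 1.68, SE 0.64, adjusted p = 0.681 by edgeR).

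Intelectins are known to be induced by type 2 cytokines in mucosal tissues, so genes of IL-4 and IL-13 signalling and its secretory targets were read as well. Of 10 genes 8 were tested and none passed. The fitted value was higher for 7 and lower for 1, and the median was 0.63 (0.18 with total counts only, 5 of 8 higher). Over all 9749 tested genes 4875 were higher, with a median of 0.00. With total counts only 1279 were higher, with a median of -0.66. Retnlb, which encodes the goblet cell product RELM-beta, held 83, 38 and 99 counts on standard chow and 88, 104 and 713 on zinc depleted chow, a log2 fold change of 2.78 (SE 0.88, adjusted p = 0.681 by edgeR) in which replicate 3 stood far above the rest. Il4ra, the shared receptor chain for IL-4 and IL-13, held 154, 152 and 278 counts against 825, 160 and 193 (log2 fold change 1.05, SE 0.45, adjusted p = 0.681), with replicate 1 the highest.

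Markers of other epithelial cells also differed between the libraries, in a way that depended on the scaling. All 14 goblet cell markers were detected in every library, with a summed level of 11287, 9595 and 9858 CPM on standard chow and 14866, 8092 and 7865 CPM on zinc depleted chow. On this scale zinc depleted replicates 2 and 3 had the lowest sums, and they also had the lowest share of Itln1, a gene that goblet cells express too. Zinc depleted replicate 1 had the highest sum, while its share of Itln1 lay within the standard range. A large part of each sum was Spink4, with 6190, 4736 and 6560 CPM on standard chow and 6393, 4645 and 4025 CPM on zinc depleted chow. With TMM factors the order turned, with goblet sums of 6539, 6377 and 10979 on standard chow and 10199, 12648 and 17105 on zinc depleted chow. The 14 markers did not move as a block. In CPM, zinc depleted replicates 2 and 3 both lay below every standard library for 7 and above every standard library for 3. With TMM factors this held for 3 and 5. The 10 Paneth cell markers were split too, with 3 below and 4 above in CPM, and 0 and 5 with TMM factors. These 2 libraries were singled out after their values were seen. How many of all tested genes show these patterns was not counted, and the median log2 fold change by total counts was -0.66. Muc2, the secreted mucin of goblet cells, held 10607, 7569 and 3164 counts on standard chow and 45283, 1773 and 1664 on zinc depleted chow, and was among the 7. Agr2, a chaperone for mucins, was among the 3 goblet markers above. It read 472, 449 and 506 CPM on standard chow and 723, 592 and 1038 CPM on zinc depleted chow. The cells had been sorted by FACS, and the study's methods describe the sorted fraction as nearly free of other cells. The part of goblet cell RNA in the level of Itln1 was not tested.

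By total counts, enterocyte markers summed to 67.8 to 296 CPM on standard chow and 43.7 to 55.2 CPM on zinc depleted chow, with 6 of 12 detected in all libraries and Alpi, Apoa1, Apoa4, Lct and Rbp2 among those at 0 in some. The sums were 37.5 to 167 against 28.3 to 35.5 CPM for 10 enteroendocrine markers, of which Neurod1, Cck, Gcg, Tph1, Gip, Ghrl and Sst were at 0 in some. They were 40.0 to 1060 against 65.5 to 267 CPM for 10 tuft cell markers, of which Il25 was at 0 in some libraries. The 8 stem cell markers summed to 1264 to 3959 CPM against 530 to 746 CPM, with Ascl2 at 0 in some libraries, and 8 proliferation markers to 109 to 292 against 46.7 to 81.3 CPM. Most of the stem sum was Olfm4, with 3372, 1248 and 1120 CPM on standard chow and 492, 418 and 511 CPM on zinc depleted chow. The groups overlapped in CPM for Lgr5, Slc12a2, Smoc2, Axin2 and Rnf43, but not for Olfm4, Ascl2 and Gkn3. The 12 immune cell markers summed to 77.2 to 179 against 69.7 to 112 CPM, with Cd3e, which defines T cells, at 0 in all libraries and Ptprc, Cd3g, Cd79a, Igkc, Jchain and Itgam among those at 0 in some. For the sums of enterocyte, enteroendocrine, stem and proliferation markers the range with zinc depletion lay below the standard range in CPM by total counts. On this scale the median tested gene had a log2 fold change of -0.66. How many of all tested genes lay below in this way is not given here. With TMM factors each of these ranges overlapped: 75.5 to 197 against 37.9 to 119 for enterocyte, 41.7 to 111 against 19.4 to 77.3 for enteroendocrine, 1041 to 2294 against 512 to 1236 for stem and 101 to 169 against 55.7 to 129 for proliferation markers. Tuft cell markers had 44.5 to 704 against 142 to 201 and immune markers 51.3 to 179 against 47.8 to 197 on that scale. By total counts the highest standard sum was that of replicate 2 for enterocyte, enteroendocrine and tuft markers. It was that of replicate 1 for stem, proliferation and immune markers. The part of these cells in the values above was not tested.

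Among 4265 genes with a mean log2 CPM of at least 3, those whose log2 CPM with TMM scaling tracked each member most closely over the 6 libraries included Prelid3b, Copz2 and Plpp2 for Itln1, Tmed5 and Twf1 for Mptx1, and Itfg1, Ptpmt1 and Drap1 for Mptx2. The correlations with Itln1 were 0.99, 0.99 and 0.98, and the median over all genes was 0.31. Copz2 (0.99) and Plpp2 (0.98) kept theirs with total counts only, whereas Prelid3b had 0.78. For Mptx1 the correlations were 0.97 with each gene (median 0.25), and 0.91 for Tmed5 and 0.33 for Twf1 with total counts only.

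For Mptx2 the 3 correlations rounded to 1.00 (median 0.23), but with total counts only they were -0.75 for Itfg1, 0.92 for Ptpmt1 and -0.43 for Drap1. The least alike genes were Acsl1 for Itln1 (-0.99, and 0.76 with total counts only), Hsd17b4 for Mptx1 (-0.98, and -0.33) and Rpn2 for Mptx2 (below -0.99, and -0.88). The points of these correlations are 6 libraries that share their scaling factors, and several changed sign with the scaling, so they are given as a description.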

How the data were processed

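The files deposited by the authors hold raw counts of reads per gene (Ensembl identifiers, 6 libraries, single-end reads from an Element AVITI instrument per the labels). The submitters' processing notes name FastQC, Trimmomatic 0.39, STAR 2.7.10a, DESeq2 and build mm39, and the methods describe default STAR settings with a GENCODE annotation. For the counting program, strand use and reads with several matches, the setting is not given in the sources used here.

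Symbols, positions and canonical transcript lengths came from GENCODE M39 on GRCm39, in which 54749 of the 55414 identifiers were found. Upstream windows were read from GRCm39, and the starts and the promoter set for the TATAA search from RefSeq. Diet was tested with edgeR 4.0.16 in R 4.3.3 (quasi-likelihood F test, TMM, filterByExpr, two-sided, Benjamini-Hochberg adjustment over 9749 genes, threshold 0.05), and the procedure was tested on simulated data. The outcome of the simulation is not given here, so it does not show how large a change these libraries could miss. The common biological coefficient of variation was 44.0%. The SE was the absolute log2 fold change divided by the square root of F. TPM and ratios used counts divided by canonical length, with 0.5 count added for ratios. Shares and log2 ratios were compared by exact two-sided permutation tests. Shares have Wilson and CPM values exact Poisson 95% intervals. A count of 0 was taken to allow 3 counts.

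The alternatives were DESeq2 1.42.0, limma-voom (limma 3.58.1), RLE factors, total counts only, scaling without alpha-defensins, Lyz1 and the 3 genes, no low-count filter, each library left out, the replicate number as a block, other reference genes, other denominators and 1 count added. The 3 genes and all lists (pentraxin family, lectins, type 2 signalling, Paneth cell products, alpha-defensins and 8 marker lists) were chosen with earlier results of these data known, and the lists were only counted. Named beside them were Lyz1, Lyz2 and Mmp7 as references, every pentraxin, the 2 members of each other list with the smallest unadjusted p where none passed, genes sharing 75 transcript bases with a member, and the 3 most and 1 least correlated genes, of which some, like some markers at 0, are not reported here. Other genes were named after their values were seen: Muc2, Agr2, Olfm4 and the other stem cell markers, the nearest neighbour Or10j2, and markers at 0. Protein sequences were not used here.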

Additional observations from a re-analysis of the deposited data

How the results depend on the processing

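No gene was called under the main settings or with RLE factors, total counts only, scaling without the abundant genes, limma-voom or the replicate block. DESeq2 called 10 genes, and 76 were called without the low-count filter. With 1 library left out, 0 to 28 genes were called, 28 without standard replicate 3. Of the 13 alternatives for each log2 fold change, the sign of Itln1 turned with total counts only (-0.39), and Mptx1 and Mptx2 kept theirs in all 13. Leaving out 1 library gave 0.15 to 0.71 for Itln1, 1.55 to 2.02 for Mptx1 and 1.43 to 2.44 for Mptx2. The ratio of Mptx1 to Mptx2 ranged from -0.51 to 0.78 in log2 difference with 1 library left out, and its sign turned without zinc depleted replicate 1 (-0.51). The other ratios and all shares kept their direction under every alternative. The cause of these shifts was not tested.

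Same-numbered libraries had correlations of 0.15, -0.06 and 0.25 in their deviations from the group means, and standard replicate 2 correlated best with zinc depleted replicate 1 (0.25), so the numbers were not taken to pair the libraries. With the replicate block the log2 fold changes were 0.38, 1.72 and 1.55 for Itln1, Mptx1 and Mptx2. The block gave 962 genes at an unadjusted p under 0.05, against 645 without it. Zinc depleted replicate 1 and standard replicate 3 stand apart from their groups, and the values without them are among those given. Counting error matters most for Mptx1, with 40 to 176 counts per library.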
